A study of Mus musculus with 12 samples.

Results

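The response of the Ahnak knockout liver to a high-fat diet was measured by setting 3 livers of knockout mice on the diet against 3 livers of knockout mice on chow, across all genes with a single symbol. These 6 arrays were chosen by their genotype and diet labels out of 12 in the series. All mice were male C57BL/6. Per the labels, AHNAK KO (KO) mice received a high-fat diet (HFD, 60% fat) or regular chow for 8 weeks, in groups matched for body weight, and wild-type (WT) mice received the same diets. Each of the 4 groups held 3 mice, 1 mouse per array, and no source used here gives the age of the animals. Each array gave a log2 signal, a relative brightness on a log scale in which 1 unit is a 2-fold difference, for 41345 probe sets. A single gene symbol was given for 23521 of them, which stood for 22180 genes.

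The liver meets a high-fat diet by storing, burning and exporting fat, and it also houses the enzymes that clear drugs, steroids and bile acids. Many of those enzymes are cytochromes P450 whose genes are set by nuclear receptors such as PXR and CAR and, in rodents, by the sex-specific pattern of growth hormone pulses, so that male and female livers carry different sets. AHNAK is a very large scaffold protein beneath the cell membrane.

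Ahnak itself was covered by 1 probe set, at 6.46, 6.52 and 6.62 in KO livers on HFD and 6.38, 6.74 and 6.66 in KO livers on chow. WT livers read 7.26, 7.06 and 6.74 on HFD and 6.50, 6.83 and 6.58 on chow. KO livers on chow thus overlapped WT livers on chow. No source used here says where this probe set lies relative to the deleted part of the gene, so it does not check the genotype, which rests on the labels. The livers carried the hepatocyte markers at a mean log2 signal of 13.39 to 13.44 on HFD and 13.43 to 13.45 on chow in KO mice. Xist, which male cells do not express, read 4.21 to 4.76 over the 12 arrays and gives a sense of the signal of an absent transcript. Array medians ran from 5.58 to 5.70, and arrays within a KO group correlated across genes with r of 0.992 to 0.994, against 0.991 to 0.993 between the KO groups. The first principal component of the 6 KO arrays held 31.0% of their variance and placed the 3 HFD livers on one side, at 12.0 or above, and the 3 chow livers on the other, at -6.9 or below. The second held 21.8% and set KO HFD 1, at 25.1, apart from the other 5 KO arrays at -15.3 to 5.2. Precision is limited by having 3 arrays in each group.

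In KO livers 54 of 22180 genes (0.243%) changed on HFD, at a limma adjusted p under 0.05. Of these 19 (0.0857%) were higher and 35 (0.158%) lower on HFD. The genes that fell included 10 cytochromes P450, 4 carboxylesterases and 2 glutathione S-transferases, enzymes that act on foreign compounds, steroids and lipids. Those that rose included Moxd1, Selenbp2 and C6, which male mouse livers carry at higher levels than female livers, together with the acute phase protein Saa3 and the fatty acid binding protein Fabp5. The change was at least 2-fold for 28 of the 54 genes, and the smallest was 0.48 on the log2 scale. An unadjusted p under 0.05 was reached by 1887 genes, and the median log2 difference over all genes was 0.004. In 1550 genes (6.99%) all 3 HFD arrays lay above all 3 chow arrays, and in 1506 (6.79%) all lay below. Each of the 54 changed genes was free of overlap in the direction of its change.

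**Figure D1:**
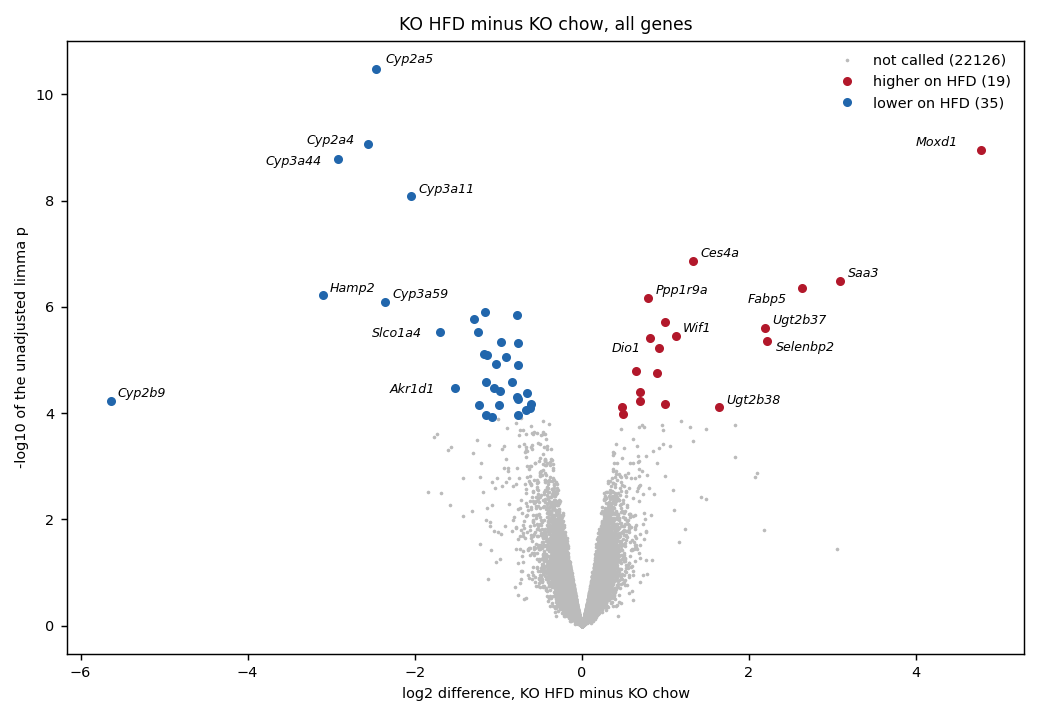
Log2 difference between KO livers on HFD and KO livers on chow (x axis, 22180 genes) against the negative log10 of the unadjusted limma p (y axis). Red points are the 19 genes higher and blue points the 35 genes lower on HFD at an adjusted p under 0.05, with Moxd1 at 4.77 and Cyp2b9 at -5.64 as the extremes.

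Several of the larger falls were in cytochromes P450. Of 98 measured genes with a cytochrome P450 symbol, 10 fell and 0 rose, against 0.158% and 0.0857% of all genes. Cyp2a5, which oxidises nicotine and coumarin, read 5.85, 5.65 and 5.88 in KO livers on HFD, against 8.15, 8.26 and 8.36 in KO livers on chow. Its neighbour Cyp2a4, a testosterone 15-alpha-hydroxylase, read 7.38, 7.06 and 7.43 on HFD, against 9.66, 9.71 and 10.19 on chow. In both genes the 3 HFD livers lay far below the 3 chow livers, with log2 differences of -2.46 ± 0.11 (SE, limma adjusted p = 7.3e-07) and -2.56 ± 0.15 (adjusted p = 8.18e-06). The Cyp3a genes encode the main drug- and steroid-oxidising enzymes of the liver. Cyp3a11, which like human CYP3A4 oxidises many drugs, read 9.70, 9.41 and 9.45 in KO livers on HFD, against 11.63, 11.57 and 11.51 on chow, a difference of -2.05 ± 0.15 (adjusted p = 3.72e-05). Cyp3a44 read 4.39, 4.07 and 4.13 on HFD, against 6.92, 6.87 and 7.57 on chow, and Cyp3a59 read 7.56, 7.30 and 7.34 on HFD, against 9.95, 9.62 and 9.69 on chow. The signal of Cyp3a44 in KO livers on HFD lay within or below the range of Xist beside a measured difference of -2.92 ± 0.18 (adjusted p = 9.26e-06). Cyp3a59 differed by -2.35 ± 0.26 (adjusted p = 0.0016).

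The largest fall of all was that of Cyp2b9, a steroid-hydroxylating enzyme of female mouse liver. It read 6.18, 4.39 and 3.98 in KO livers on HFD, against 7.87, 11.31 and 12.29 in KO livers on chow. The groups did not overlap, but the chow livers spread widely. KO HFD 2 and KO HFD 3 read within or below the range of Xist, so the size of the difference rests partly on background signal. The difference of -5.64 ± 0.94 had the largest standard error of the 54 genes (adjusted p = 0.0316). Its call was lost in 7 of 12 (highest adjusted p = 0.141, without KO chow 2) of the fits that left out 1 array. Its relatives Cyp2b10 and Cyp2b13 differed by -1.09 ± 0.47 and -0.59 ± 0.31 and did not pass (adjusted p = 0.548 and 0.646). The other P450 genes that fell were Cyp2c29, Cyp2c69, Cyp2j8 and Cyp26a1, the enzyme that clears retinoic acid, with log2 differences of -1.03, -1.08, -0.98 and -0.91 in that order. Cyp2j8 and Cyp26a1 are in none of the 25 gene lists and were named after their values were seen. Cyp2c29, an oxidase of drugs and fatty acids, read 12.62, 11.99 and 12.16 on HFD, against 13.22, 13.28 and 13.36 on chow. The calls of Cyp2c29, Cyp2c69 and Cyp2j8 were lost in 3 of 12 (highest adjusted p = 0.058, without KO chow 3), 10 of 12 (highest adjusted p = 0.197, without KO chow 2) and 5 of 12 (highest adjusted p = 0.0857, without KO chow 2) of the fits that left out 1 array.

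Not every enzyme of this kind moved. Cyp2e1, the ethanol-oxidising P450 of pericentral hepatocytes, differed by 0.02 ± 0.07 (adjusted p = 0.962), and Cyp1a2, which oxidises caffeine, by -0.15 ± 0.13 (adjusted p = 0.817). The receptors that drive many of the P450 genes differed by -0.30 ± 0.13 for Nr1i2 (PXR) and 0.06 ± 0.22 for Nr1i3 (CAR), and neither passed (adjusted p = 0.532 and 0.971). Over a list of 26 measured genes of drug and steroid metabolism, 7 fell, 0 rose and 19 did not pass, with a median log2 difference of -0.59 against 0.004 over all genes, of which 0.158% fell. All 3 HFD livers lay below all 3 chow livers in 14 of the 26, against 6.79% of all genes. Many of these genes have close paralogs, and how far probe sets for Cyp2a4 and Cyp2a5, or for the Cyp2b and Cyp3a genes, read each other's RNA was not tested.

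The promoters of the Cyp3a genes that fell are shown because the PXR and CAR receptors bind DNA through repeats of the hexamer AGGTCA, and that of Moxd1 because it had the largest rise. They are the 250 bases before the start in RefSeq, build GRCm38.p6, at chr5:145879855-145880104 on the minus strand for Cyp3a11, chr5:145805875-145806124 on the minus strand for Cyp3a44, chr5:146079008-146079257 on the plus strand for Cyp3a59 and chr10:24223267-24223516 on the plus strand for Moxd1. Each is written 5′ to 3′ in the direction of transcription, with capitals for AGGTCA on either strand in the Cyp3a promoters and for TTCNNNGAA, the palindrome bound by STAT factors, in that of Moxd1.
Cyp3a11: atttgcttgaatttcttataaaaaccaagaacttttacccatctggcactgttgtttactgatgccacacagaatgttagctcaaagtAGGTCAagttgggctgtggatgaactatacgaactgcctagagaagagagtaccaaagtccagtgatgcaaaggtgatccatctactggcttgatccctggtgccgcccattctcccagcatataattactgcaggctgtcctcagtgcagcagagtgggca
Cyp3a44: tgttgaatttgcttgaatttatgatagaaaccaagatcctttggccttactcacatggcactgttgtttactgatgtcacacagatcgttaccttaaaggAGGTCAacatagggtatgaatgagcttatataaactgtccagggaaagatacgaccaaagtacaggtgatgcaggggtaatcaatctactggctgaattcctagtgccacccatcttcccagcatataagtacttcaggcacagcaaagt
Cyp3a59: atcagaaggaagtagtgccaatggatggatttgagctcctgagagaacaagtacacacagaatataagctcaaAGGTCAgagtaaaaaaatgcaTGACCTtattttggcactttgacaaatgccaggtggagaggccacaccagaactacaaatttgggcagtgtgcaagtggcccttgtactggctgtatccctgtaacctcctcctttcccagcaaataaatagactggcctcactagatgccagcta
Moxd1: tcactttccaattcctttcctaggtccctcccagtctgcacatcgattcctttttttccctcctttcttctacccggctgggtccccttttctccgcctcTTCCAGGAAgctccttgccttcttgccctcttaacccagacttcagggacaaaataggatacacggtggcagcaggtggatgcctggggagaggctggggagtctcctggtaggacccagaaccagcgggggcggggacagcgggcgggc
The hexamer began 162 bases before the start in Cyp3a11 and 150 in Cyp3a44, and in Cyp3a59 at 177 and, on the opposite strand, at 156. AGGTCA on either strand was found in 11 of the 29 fallen genes with a promoter in the table (37.9%). It was found in 4 of the 15 risen genes (26.7%) and in 15.8% of all 27025 genes with a promoter. The related hexamer AGTTCA was found in 6 of the 29 (20.7%), in 4 of the 15 (26.7%) and in 13.4% of all genes with a promoter. TTCNNNGAA was found in 1 of the 29 (3.4%), in 1 of the 15 (6.7%) and in 8.1% of all genes with a promoter. The motifs were chosen after the results were seen, and a match is a description of the letters only.

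Other enzymes for foreign compounds fell as well. The carboxylesterases, which split ester drugs and lipids, had 4 members lower and 1 higher of 19 measured, against 0.158% and 0.0857% of all genes. Ces2a read 10.77, 10.57 and 10.58 in KO livers on HFD, against 11.73, 11.91 and 11.75 on chow, a difference of -1.16 ± 0.13 (adjusted p = 0.00235). Ces1b, Ces1d and Ces1e fell, with differences of -1.25, -0.77 and -0.77, while Ces4a rose by 1.33 ± 0.12 (adjusted p = 0.0005). Ces4a read 7.72, 7.70 and 7.96 on HFD, against 6.32, 6.70 and 6.37 on chow, opposite in direction to its 4 relatives. Ces1d and Ces1e were named after their values were seen. Of 18 glutathione S-transferases, which couple glutathione to reactive compounds, Gsta4 and Gstm1 fell and 0 rose, against the same shares of all genes. Gsta4, which clears the lipid peroxidation product 4-hydroxynonenal, read 9.36, 9.25 and 8.74 on HFD, against 10.19, 10.14 and 10.42 on chow, a difference of -1.13 ± 0.15 (adjusted p = 0.00685). Gstm1 differed by -0.62 ± 0.11 (adjusted p = 0.0358). Gstm3 and Gsta3 differed by -1.77 ± 0.35 and -0.73 ± 0.13 and did not pass (adjusted p = 0.0747 and 0.0506).

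Over a list of 20 measured targets of the stress regulator NRF2 and genes of glutathione metabolism, 3 fell, 0 rose and 17 did not pass. The median was -0.12, and of all genes 0.158% fell and 0.0857% rose. The member that fell beside Gsta4 and Gstm1 was the quinone reductase Nqo1, at -0.77 ± 0.14 (adjusted p = 0.0462). Gclc, which encodes the rate-limiting enzyme of glutathione synthesis, differed by 0.06 ± 0.11, and Nfe2l2, which encodes NRF2, by -0.04 ± 0.09 (adjusted p = 0.934 and 0.943). The calls of Nqo1, Gstm1 and Ces1e were lost in 11 of 12 (highest adjusted p = 0.159, without KO HFD 2), 9 of 12 (highest adjusted p = 0.174, without KO chow 3) and 7 of 12 (highest adjusted p = 0.137, without KO chow 3) of the fits that left out 1 array.

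Fmo2, a flavin monooxygenase, read 8.94, 8.90 and 8.90 in KO livers on HFD, against 9.79, 10.58 and 10.25 on chow, a difference of -1.29 ± 0.15 (adjusted p = 0.00265). WT livers on chow averaged 8.97 ± 0.06 (SD, n = 3), lower than KO livers on chow. The indolethylamine methyltransferase Inmt, the histamine methyltransferase Hnmt and monoamine oxidase A (Maoa) fell, with differences of -1.18, -0.77 and -0.68. Inmt read 11.53, 11.24 and 10.87 on HFD, against 12.26, 12.38 and 12.54 on chow. Falls were also measured for Acmsd, a decarboxylase that keeps intermediates out of NAD synthesis, at -1.14, the formamidase Afmid at -0.78 and the aminotransferase Kyat3 at -0.66. Acmsd read 7.76, 7.46 and 7.54 on HFD, against 8.74, 9.11 and 8.34 on chow. Hnmt, Maoa, Acmsd, Afmid and Kyat3 are in none of the lists and were named after their values were seen. The calls of Maoa, Acmsd, Afmid, Kyat3 and Hnmt were lost in 9 of 12 (highest adjusted p = 0.167, without KO chow 2), 9 of 12 (highest adjusted p = 0.167, without KO chow 2), 7 of 12 (highest adjusted p = 0.14, without KO chow 2), 4 of 12 (highest adjusted p = 0.109, without KO chow 3) and 2 of 12 (highest adjusted p = 0.0542, without KO chow 2) of the fits that left out 1 array.

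A list of 25 measured genes of bile acid synthesis and transport had 2 members lower and 0 higher, against 0.158% and 0.0857% of all genes. Slco1a4, an uptake transporter for organic anions and bile acids, read 8.98, 9.22 and 9.07 in KO livers on HFD, against 10.87, 10.85 and 10.63 on chow. The groups lay well apart, with a difference of -1.70 ± 0.21 (adjusted p = 0.0037). Akr1d1, the 5-beta-reductase that gives bile acids and steroid hormones their bent ring, averaged 8.66 ± 0.65 on HFD, against 10.18 ± 0.19 on chow (SD, n = 3 each), a difference of -1.52 ± 0.24 (adjusted p = 0.0212). Its call was lost in 4 of 12 (highest adjusted p = 0.113, without KO chow 2) of the fits that left out 1 array. Cyp7a1, the rate-limiting enzyme of bile acid synthesis, differed by 0.64 ± 0.24 and did not pass (adjusted p = 0.49). Cyp7b1, of the alternative route, differed by 1.30 ± 0.24 (adjusted p = 0.0609).

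The remaining fallen genes had other roles. Hamp2, a paralog of the iron hormone hepcidin, read 6.74, 7.18 and 6.42 in KO livers on HFD, against 8.94, 10.49 and 10.22 on chow, a difference of -3.10 ± 0.33 (adjusted p = 0.0015). Hepcidin itself, Hamp, differed by -0.30 ± 0.09 and did not pass (adjusted p = 0.347). The intestinal and hepatic zinc importer Slc39a4 read 9.21, 9.75 and 9.07 on HFD, against 10.43, 10.36 and 10.69 on chow, and differed by -1.15 ± 0.18 (adjusted p = 0.0178). Falls were also seen in the elastase inhibitor Serpinb1a (-1.24), the lipoprotein receptor Vldlr (-1.05), the retinol dehydrogenase family member Rdh16f2 (-0.998), the desmosomal cadherin Dsg1c (-0.96), the complement-activating lectin Mbl2 (-0.84), the transcription factor Cux2 (-0.77) and the monocarboxylate carrier Slc16a7 (-0.61). Of these, Rdh16f2, Dsg1c, Mbl2 and Slc16a7 are in none of the lists and were named after their values were seen. Dsg1c and Cyp2j8 averaged at or below the highest Xist signal in KO livers on HFD. Calls were lost in 4 of 12 (highest adjusted p = 0.0946, without KO chow 3) of the fits that left out 1 array for Slc39a4, in 7 of 12 (highest adjusted p = 0.146, without KO HFD 2) for Serpinb1a, in 3 of 12 (highest adjusted p = 0.113, without KO chow 2) for Vldlr, in 8 of 12 (highest adjusted p = 0.164, without KO chow 3) for Rdh16f2, in 2 of 12 (highest adjusted p = 0.0946, without KO chow 3) for Mbl2 and in 9 of 12 (highest adjusted p = 0.166, without KO chow 3) for Slc16a7.

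The largest rise was that of Moxd1, a copper monooxygenase related to dopamine beta-hydroxylase. It read 8.69, 10.13 and 9.82 in KO livers on HFD, against 4.46, 4.96 and 4.90 in KO livers on chow. The chow livers stood near the signal of Xist and the HFD livers far above it, a measured difference of 4.77 ± 0.29 (adjusted p = 8.18e-06) whose size depends on that low baseline. WT livers read 4.89, 4.68 and 4.69 on HFD and 4.96, 4.55 and 4.69 on chow, so the raised level was seen in the 3 KO livers on HFD and in none of the other 9. Selenbp2, a selenium-binding protein known as a target of paracetamol metabolites, read 12.06, 12.36 and 11.81 in KO livers on HFD, against 10.48, 10.08 and 9.05 on chow, and differed by 2.21 ± 0.28 (adjusted p = 0.00458). The complement component C6 read 12.29, 12.28 and 12.33 on HFD, against 11.65, 11.69 and 11.63 on chow, a difference of 0.64 ± 0.09 that rests on the narrow spread of its replicates (adjusted p = 0.0118). Its call was lost in 3 of 12 (highest adjusted p = 0.0676, without KO chow 3) of the fits that left out 1 array.

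The UDP-glucuronosyltransferases, which attach glucuronic acid to steroids and drugs, had 2 members higher and 0 lower of 11 measured, against 0.0857% and 0.158% of all genes. Ugt2b37 read 8.47, 8.91 and 8.80 in KO livers on HFD, against 6.50, 6.54 and 6.57 on chow, a difference of 2.19 ± 0.26 (adjusted p = 0.00348). Ugt2b38 read 6.34, 5.95 and 6.68 on HFD, against 4.98, 5.04 and 4.02 on chow, where 1 chow liver lay below the range of Xist and the other 2 just above it, and differed by 1.64 ± 0.28 (adjusted p = 0.0358). The call of Ugt2b38 was lost in 9 of 12 (highest adjusted p = 0.117, without KO HFD 3) of the fits that left out 1 array, and whether the probe sets of this pair read each other's RNA was not tested. Dio1, the deiodinase that activates thyroid hormone, read 11.44, 11.40 and 11.44 on HFD, against 10.54, 10.70 and 10.60 on chow, a difference of 0.81 ± 0.10 (adjusted p = 0.0042). Hsd17b12, a reductase of very long chain fatty acid elongation, rose by 0.48, the smallest of the changes, and Paqr9, a membrane protein of the progestin and adiponectin receptor family, rose by 0.49. Paqr9 and Hsd17b12 are in none of the lists and were named after their values were seen, and their calls were lost in 11 of 12 (highest adjusted p = 0.201, without KO chow 3) and 10 of 12 (highest adjusted p = 0.174, without KO chow 3) of the fits that left out 1 array.

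Saa3, an acute phase protein made in mice largely by macrophages and fat cells, read 11.88, 10.45 and 10.80 in KO livers on HFD, against 8.00, 7.80 and 8.06 on chow. It was highest in KO HFD 1, and the difference was 3.09 ± 0.31 (adjusted p = 0.00104). Fabp5, which carries fatty acids inside skin, fat and macrophage cells, read 9.76, 8.87 and 8.76 on HFD, against 6.81, 6.17 and 6.51 on chow, again highest in KO HFD 1, with a difference of 2.63 ± 0.27 (adjusted p = 0.00125). Fabp4, the fatty acid binding protein of fat cells and macrophages, read 11.34, 9.63 and 10.26 on HFD, against 8.63, 8.69 and 8.42 on chow, and the difference of 1.83 ± 0.34 did not pass (adjusted p = 0.0599). Beside these values, the 8 measured adipocyte markers, of which 0 changed, averaged 5.81 to 6.02 in KO livers on HFD, against 5.60 to 5.63 on chow, with Fabp4 among them. Adipoq, which only fat cells make, read 4.92, 4.78 and 4.67 on HFD, against 4.77, 5.04 and 4.78 on chow, and differed by -0.07 ± 0.12. The 15 Kupffer cell and macrophage markers averaged 8.85 to 9.14 on HFD, against 8.83 to 9.19 on chow, and 0 of them changed. Over all genes 0.243% changed. In whole liver, fewer cells of a type and less RNA per cell cannot be told apart.

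The other rises were in genes of mixed roles. They comprised the Wnt inhibitor Wif1 (1.12), the laminin chain Lamb3 (0.92), the matrix protein Spon2 (0.90), the actin-binding neurabin Ppp1r9a (0.80), the toll-like receptor Tlr12 (0.70), the eosinophil-type ribonuclease Rnase2a (0.99), the zinc finger gene Zscan4a of the early embryo (0.70) and the gene model Gm4450 (0.99). Wif1 read 6.77, 6.65 and 6.29 in KO livers on HFD, against 5.72, 5.32 and 5.31 on chow. Rnase2a read 4.60, 4.94 and 4.94 on HFD, against 3.70, 3.86 and 3.95 on chow, where all 3 chow livers lay below the range of Xist. The HFD livers lay within or just above that range, so both groups were near background signal. Calls were lost in 4 of 12 (highest adjusted p = 0.0817, without KO chow 2) of the fits that left out 1 array for Spon2, in 7 of 12 (highest adjusted p = 0.148, without KO chow 3) for Tlr12, in 5 of 12 (highest adjusted p = 0.116, without KO chow 2) for Zscan4a and in 7 of 12 (highest adjusted p = 0.164, without KO chow 3) for Gm4450, which was named after its values were seen.

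**Figure D2:**
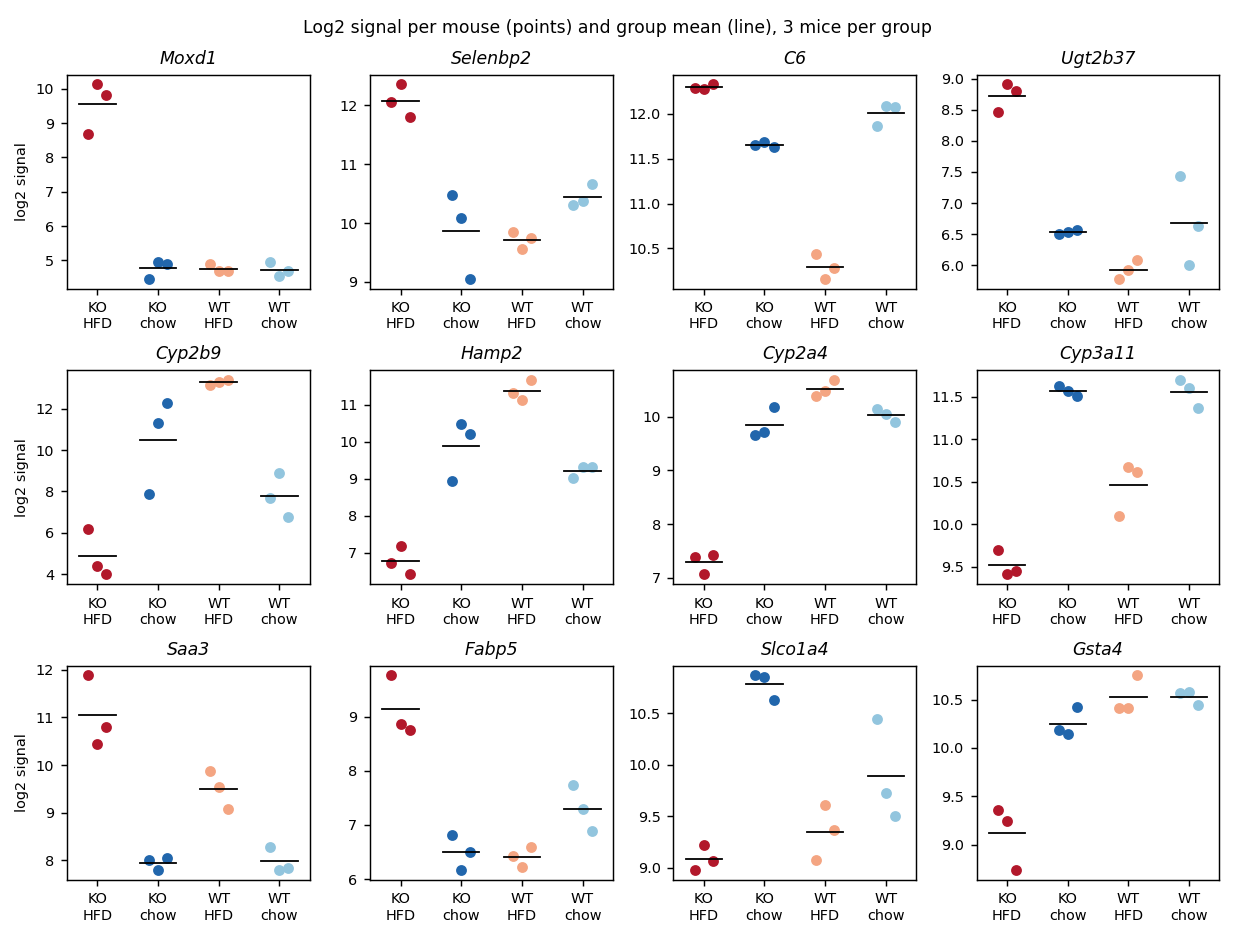
Log2 signal (y axis) of 12 changed genes in each liver, with points for mice and a line for the mean of the 3 mice of each group. From left to right the groups are KO on HFD, KO on chow, WT on HFD and WT on chow, and in every panel the KO HFD points do not overlap the KO chow points.

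The genes that rose and fell were set against lists of genes that differ between male and female mouse livers. Like the other lists, these were chosen with earlier results of these data known, so their counts are a description only. All mice were male. Of 20 measured male-biased genes, 4 rose (Moxd1, Selenbp2, Ugt2b38 and C6), 0 fell and 16 did not pass, with a median of 0.61, against 0.0857% of all genes higher. All 3 HFD livers lay above all 3 chow livers in 13 of the 20, against 6.99% of all genes, and in 0 did all lie below. Among those that did not pass, Cyp7b1 differed by 1.30, the steroid dehydrogenase Hsd3b5 by 2.10 ± 0.51 (adjusted p = 0.172), the coenzyme A hydrolase Nudt7 by 0.97 and the fatty acid elongase Elovl3 by 0.99. Other male-biased genes showed little difference, among them the urinary protein Mup20 at 0.06 ± 0.08, Cyp2d9 at 0.04 ± 0.13 and Cyp4a12a at 0.03 ± 0.20.

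Of 23 measured female-biased genes, 7 fell (Cyp2b9, Hamp2, Cyp3a44, Cyp2a4, Fmo2, Cyp2c69 and Cux2), 0 rose and 16 did not pass, with a median of -0.64, against 0.158% of all genes lower. All 3 HFD livers lay below all 3 chow livers in 14 of the 23, against 6.79% of all genes, and in 0 did all lie above. Cux2, a transcription factor of female liver, read 6.81, 6.80 and 6.65 in KO livers on HFD, against 7.40, 7.62 and 7.56 on chow, a difference of -0.77 ± 0.09 (adjusted p = 0.00241). Among the members that did not pass, Atp6v0d2, a proton pump subunit, read 7.16, 4.94 and 5.10 on HFD, against 7.76, 7.70 and 7.28 on chow, with KO HFD 1 above the other 2 HFD livers. Abcd2, a peroxisomal fatty acid transporter, differed by -1.60 ± 0.34 (adjusted p = 0.0961). The drug and steroid list shares the measured genes Cyp2b9, Cyp2b13, Cyp3a16, Cyp3a44 and Cyp2a4 with the female-biased list, so the counts and medians of these lists are not independent.

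Averaged over its members, the male-biased list read 10.92, 10.84 and 10.93 in KO livers on HFD, against 10.13, 10.18 and 9.75 in KO livers on chow. WT livers read 9.47 to 9.52 on HFD and 10.25 to 10.61 on chow. The female-biased list read 6.22, 5.89 and 5.90 in KO livers on HFD, against 6.85, 7.26 and 7.35 in KO livers on chow. WT livers read 7.32 to 7.57 on HFD and 6.53 to 6.64 on chow. The KO livers on HFD therefore had the highest male-biased and the lowest female-biased averages of the 12 livers, while on chow the KO livers lay below WT livers in the first and above them in the second. The genes of growth hormone signalling and IGF proteins had 0 changed of 19 measured, near the 0.243% of all genes that changed. Among them were Stat5b at -0.04 ± 0.12, Socs2 at -0.26 ± 0.22 and Igf1 at 0.05 ± 0.09. Whether growth hormone had a part in the list averages was not tested.

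**Figure D3:**
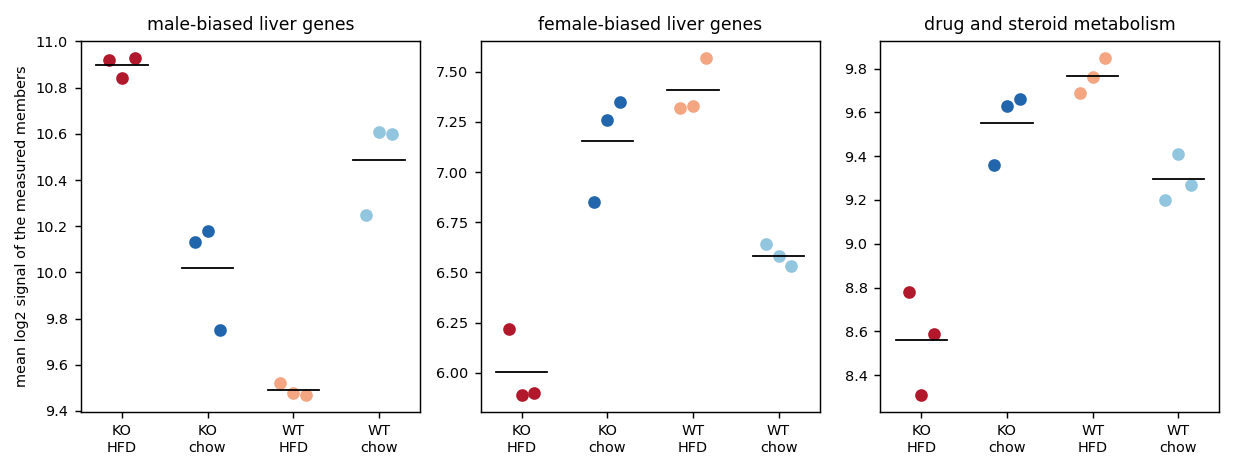
Mean log2 signal over the measured members of 3 gene lists (y axis) in each liver, with points for mice and lines for group means. KO livers on HFD averaged 10.84 to 10.93 over male-biased genes and 5.89 to 6.22 over female-biased genes, and the groups run from KO on HFD on the left to WT on chow on the right.

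Genes of fat synthesis and storage mostly did not pass in KO livers, where 0.243% of all genes changed. A count of 0 in a list of this size is near that share and says little about the list. Of 24 measured genes of fatty acid and triglyceride synthesis 0 changed, with a median of -0.11. All 3 HFD livers lay below all 3 chow livers in 5 of the 24 and above in 1, against 6.79% and 6.99% of all genes. Scd1, the desaturase that makes monounsaturated fatty acids, read 12.47, 11.81 and 10.52 in KO livers on HFD, against 13.25, 13.31 and 13.45 on chow, and although the groups did not overlap, its difference of -1.74 ± 0.34 did not pass (adjusted p = 0.0681). Fasn, the fatty acid synthase, differed by -0.33 ± 0.14 and Srebf1, the regulator of this pathway, by -0.04 ± 0.13. Of 17 genes of lipid droplets and lipases 0 changed, with a median of 0.00. Plin2, which coats lipid droplets, differed by 0.09 ± 0.07, Cidec, which enlarges them, by 0.84 ± 0.40 (adjusted p = 0.607), Cidea by 0.00 ± 0.40, and the adipogenic receptor Pparg by 0.40 ± 0.49 (adjusted p = 0.876). The list of fatty acid uptake and binding had Fabp5 higher and Vldlr lower of 14 measured, against 0.0857% and 0.158% of all genes. Cd36, a fatty acid transporter, differed by -0.66 ± 0.21 (adjusted p = 0.357).

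Genes of fat burning did not pass either, and counts of 0 are again near the 0.243% of all genes that changed. Of 19 genes of mitochondrial fatty acid oxidation and ketogenesis 0 changed, with a median of 0.07, and the carnitine palmitoyltransferase Cpt1a differed by 0.07 ± 0.08. All 3 HFD livers lay above all 3 chow livers in 6 of the 19 and below in 1, against 6.99% and 6.79% of all genes. Of 25 further targets of the fat-sensing receptor PPAR alpha 0 changed, with a median of 0.06. In 8 of the 25 all 3 HFD livers lay above all 3 chow livers, and in 3 all lay below. Ppara differed by 0.05 ± 0.09, the hormone gene Fgf21 by 0.39 ± 0.30 and the pyruvate dehydrogenase kinase Pdk4 by -1.12 ± 0.23 (adjusted p = 0.0916). Of 19 genes of cholesterol synthesis and uptake 0 changed, with a median of -0.04. In glucose metabolism and insulin signalling 0 of 23 genes changed, with Pck1 and G6pc, the enzymes of glucose output, at 0.01 ± 0.08 and -0.01 ± 0.10. Nnt, a mitochondrial transhydrogenase that some C57BL/6 substrains lack, differed by -0.25 ± 0.30 (adjusted p = 0.872).

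Of 23 genes of amino acid and urea metabolism 0 changed, near the 0.243% of all genes that changed. All 3 HFD livers lay below all 3 chow livers in 11 of them, against 6.79% of all genes, with a median of -0.12. The histidine lyase Hal read 12.09, 12.04 and 11.45 in KO livers on HFD, against 12.82, 12.82 and 12.63 on chow, a difference of -0.90 ± 0.17 (adjusted p = 0.0609). Gnmt, which disposes of methyl groups, differed by -0.44 ± 0.10 and the urea cycle enzyme Asl by -0.44 ± 0.10 (adjusted p = 0.124 and 0.132). None of the 3 passed. The list of endoplasmic reticulum chaperones had 0 of 19 changed in KO livers, with Hspa5, the main chaperone, at -0.25 ± 0.17 and Derl3 at 1.48 ± 0.28 (adjusted p = 0.0633).

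Few markers of inflammation, and no marker of another liver cell type, passed in KO livers. Over all genes 0.243% changed, so a count of 0 in such a list is near that share. Of 25 cytokines and chemokines 0 changed, with Tnf at -0.01 ± 0.10 and Ccl2 at 0.17 ± 0.21, and of 26 interferon-response genes 0 changed. Saa3 was the 1 member of 24 measured acute phase genes that rose, against 0.0857% of all genes. Its relative Saa2 differed by 2.17 ± 0.78 and did not pass (adjusted p = 0.449). In none of the 15 lists of cell type markers did a member change in KO livers. The lipid-associated macrophage markers averaged 6.38 to 6.49 in KO livers on HFD, against 6.47 to 6.48 on chow, with Trem2 at 0.08 ± 0.16 and Mmp12 at 0.32 ± 0.13. The stellate cell and fibrosis markers averaged 8.01 to 8.23 on HFD, against 8.08 to 8.28 on chow, with the collagen gene Col1a1 at 0.00 ± 0.13. The lymphocyte markers averaged 5.89 to 6.12 on HFD, against 6.12 to 6.17 on chow. A gene that did not pass is not shown to be equal between the diets.

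**Figure D4:**
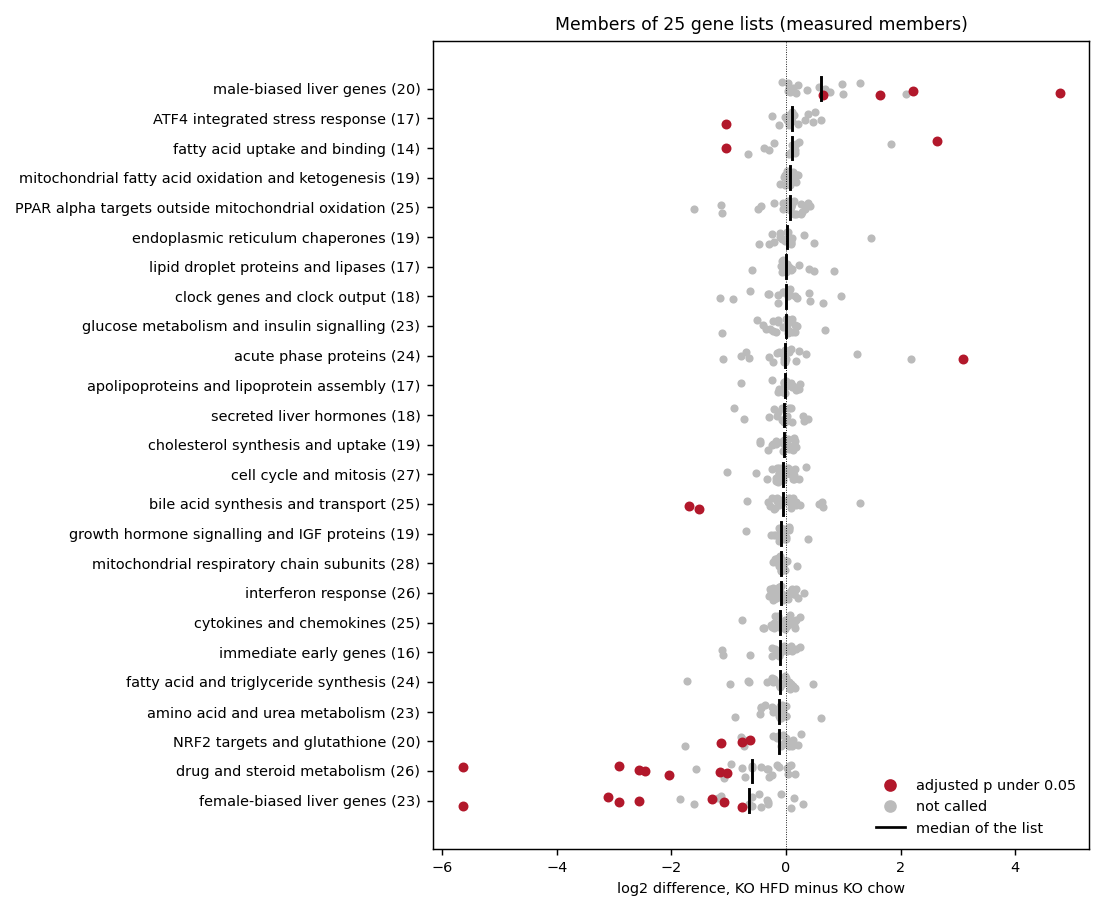
Log2 difference between KO livers on HFD and KO livers on chow (x axis) for every measured member of 25 gene lists, ordered by the median of the list, which the black bar marks. Red points passed an adjusted p under 0.05 and grey points did not, and the male-biased list at the top (median 0.61) and the female-biased list at the bottom (median -0.64) lie farthest apart.

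The same diet was then compared in WT livers, whose group means share no array with those of the KO livers. The spread behind both sets of p-values was estimated over all 4 groups, so the KO and WT calls are not independent. In WT livers 1543 genes (6.96%) changed, 891 higher (4.02%) and 652 lower (2.94%) on HFD. The diet by genotype interaction, which is the KO diet difference minus the WT diet difference, passed for 783 genes (3.53%), with 318 more positive (1.43%) and 465 more negative (2.10%) in KO. It passed for 44 of the 54 genes that changed in KO livers. Those 54 genes were called by the KO difference, which is part of the interaction, so this count is not independent of how they were chosen. The KO and WT differences correlated across genes with a Pearson r of -0.14 and a Spearman rho of -0.10, a description over 22180 genes that are not independent of one another. The 3 WT livers on HFD stood apart from all other livers on the first component of the 12 arrays, which held 32.2% of the variance, at 30.0 to 32.3 against -18.5 to -4.0.

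A small set of genes moved the same way in both genotypes. Of the 19 genes that rose in KO livers, 2 also rose in WT livers, against 4.02% of all genes. These were Dio1 and Saa3, which rose in WT livers by 0.85 and 1.52. Dio1 read 11.59, 11.57 and 11.69 in WT livers on HFD, against 10.63, 10.68 and 11.01 in WT livers on chow. Of the 35 that fell, 4 also fell in WT livers, namely Ces2a, Cyp3a11, Cyp3a44 and Slc39a4, against 2.94% of all genes. Ces2a differed by -1.16 ± 0.13 in KO and -1.16 ± 0.13 in WT, an interaction of 0.00 ± 0.19 (adjusted p = 0.996). The falls of Cyp3a11 and Cyp3a44 were larger in KO, with interactions of -0.95 ± 0.21 (adjusted p = 0.0284) and -1.47 ± 0.26 (adjusted p = 0.0102). Saa3 had an interaction of 1.58 ± 0.44 that did not pass (adjusted p = 0.0744).

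Another set moved in opposite directions. Of the 19 genes that rose in KO livers 7 fell in WT livers, against 2.94% of all genes. They were C6, Gm4450, Paqr9, Ppp1r9a, Spon2, Ugt2b38 and Zscan4a. Of the 35 genes that fell in KO livers 9 rose in WT livers, against 4.02% of all genes. They were Cyp26a1, Cyp2a5, Cyp2b9, Dsg1c, Hamp2, Hnmt, Mbl2, Serpinb1a and Vldlr. In WT livers 10 of the 19 and 22 of the 35 did not pass. By sign alone, 6 of the 19 and 16 of the 35 moved the same way in WT livers as in KO livers. Cyp2b9 read 13.17, 13.30 and 13.40 in WT livers on HFD, against 7.69, 8.88 and 6.75 in WT livers on chow, so that the KO livers on HFD were the 3 lowest of the 12 livers and the WT livers on HFD the 3 highest, and the interaction was -11.16 ± 1.32 (adjusted p = 0.000837). Hamp2 read 11.32, 11.13 and 11.67 in WT livers on HFD, against 9.02, 9.33 and 9.31 on chow, an interaction of -5.25 ± 0.46 (adjusted p = 0.000111). C6 read 10.44, 10.16 and 10.28 in WT livers on HFD, against 11.86, 12.09 and 12.08 on chow, an interaction of 2.36 ± 0.13 (adjusted p = 5.16e-06). Of the male-biased list 14 of 20 members had a positive interaction and 0 a negative one, against 1.43% and 2.10% of all genes, and of the female-biased list 0 and 12 of 23. In the growth hormone list 3 of 19 members had a positive interaction, among them Socs2 at 1.82, and 0 a negative one.

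**Figure D5:**
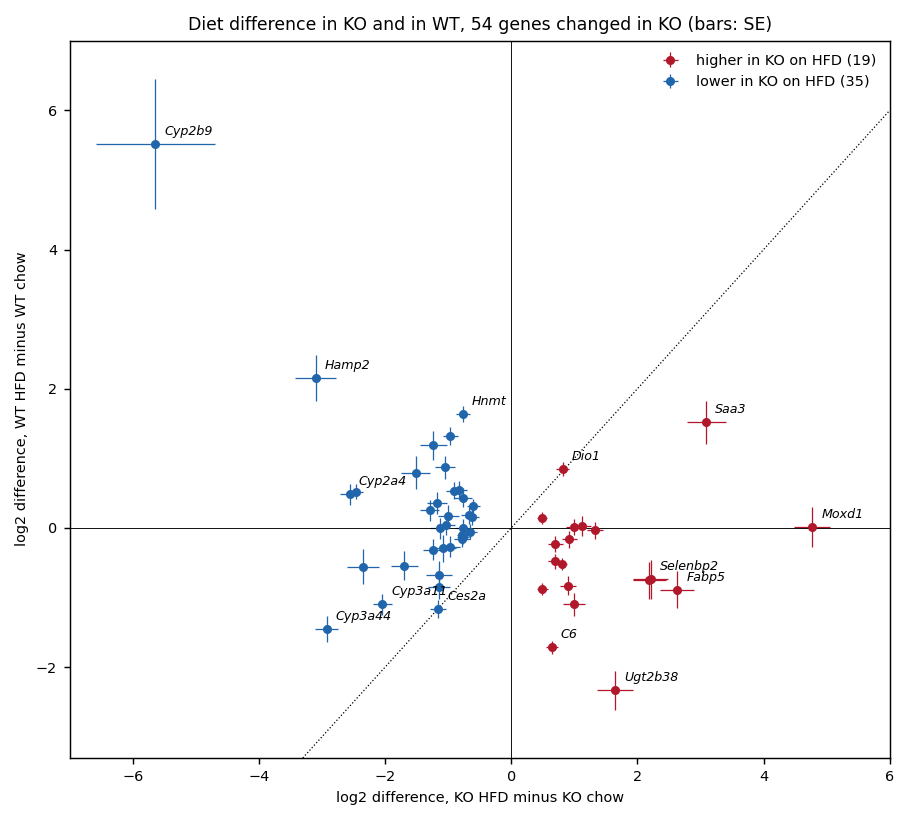
Log2 difference between HFD and chow in KO livers (x axis) and in WT livers (y axis) for the 54 genes that changed in KO, with bars for the SE and a dotted line of equal change. Cyp2b9 lies at -5.64 in KO and 5.52 in WT, whereas Dio1 and Saa3 are the 2 risen genes above 0 in both that passed in WT.

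Large interactions also arose in genes whose own difference in KO livers did not pass. The most negative included Cyp2b13 at -5.18, the acute phase gene Orm3 at -4.72, the signalling regulator Rgs16 at -4.55, the organic anion transporter Slc22a27 at -4.15, Atp6v0d2 at -4.00, the lipogenic gene Thrsp at -3.94, the clock repressor Ciart at -3.69 and the phosphatidate phosphatase Lpin1 at -3.68. Thrsp differed by -0.65 ± 0.20 in KO livers (adjusted p = 0.332) and by 3.30 ± 0.20 in WT livers (adjusted p = 4.57e-06). The most positive included Hsd3b5 at 4.23, Cyp4a12b at 3.56, Cyp7b1 at 3.45 and the insulin receptor substrate Irs2 at 2.97. Irs2 differed by 0.68 ± 0.30 in KO livers (adjusted p = 0.57) and by -2.29 ± 0.30 in WT livers (adjusted p = 0.00105). The WT response also covered lists in which 0 members changed in KO, with 15 of 19 endoplasmic reticulum chaperones, 10 of 13 lipid-associated macrophage markers and 11 of 25 stellate cell and fibrosis markers higher on HFD, against 4.02% of all genes. Hspa5 and Trem2 had interactions of -1.03 ± 0.24 and -0.93 ± 0.23 (adjusted p = 0.0399 and 0.0442).

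For some genes the chow livers of the 2 genotypes stood at different levels, a comparison given here as values only. Fmo2 averaged 8.91 ± 0.02 in KO livers on HFD, 10.21 ± 0.40 in KO livers on chow, 9.23 ± 0.05 in WT livers on HFD and 8.97 ± 0.06 in WT livers on chow (SD, n = 3 each). Cux2 averaged 6.75 ± 0.09 in KO livers on HFD and 7.53 ± 0.12 in KO livers on chow, against 6.63 ± 0.09 in WT livers on HFD and 6.74 ± 0.05 in WT livers on chow. Cyp2c69 averaged 7.89 ± 0.05 in KO livers on HFD and 8.96 ± 0.20 in KO livers on chow, against 7.33 ± 0.24 in WT livers on HFD and 7.63 ± 0.44 in WT livers on chow. In these 3 female-biased genes the KO livers on chow were the highest of the 4 groups. Spon2 averaged 8.86 ± 0.11 in KO livers on HFD and 7.96 ± 0.21 in KO livers on chow, against 8.02 ± 0.13 in WT livers on HFD and 8.85 ± 0.21 in WT livers on chow, so that KO livers on HFD and WT livers on chow averaged nearly the same. By contrast Ces4a and Cyp2a4 had KO and WT chow livers close together, at 6.47 ± 0.20 in KO and 6.68 ± 0.10 in WT for Ces4a and at 9.85 ± 0.29 and 10.03 ± 0.13 for Cyp2a4.

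How firmly the 54 calls stand differed between genes. In all 12 fits that left out 1 array, 27 genes kept their call, 11 higher and 16 lower, among them Moxd1, Saa3, Fabp5, Selenbp2, Ugt2b37, Cyp2a4, Cyp2a5, Cyp3a11, Cyp3a44, Cyp3a59, Hamp2 and Slco1a4. The count of changed genes was 28 without KO chow 2, 35 without KO chow 3 and 79 without KO HFD 1. With the 6 KO arrays fitted alone 21 genes changed, 18 of them among the 54, and without the 3 WT HFD arrays 35 changed. Some genes that kept their call in all 12 fits lost it with the KO arrays alone. These were Selenbp2, Ces1b, Ces1d, Cux2, Cyp26a1, Dsg1c, Fmo2, Gsta4, Inmt and Wif1.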

How the data were processed

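The submitters' processing notes name oligo as the tool behind the log2 signals that the authors deposited, for 41345 probe sets on 12 mouse arrays. No source used here gives its version or settings, and the deposited values (1.40 to 14.36, 0 missing) were used without further scaling. Of the probe sets, 23521 carried 1 symbol in the array annotation (23328 matched to RefSeq by gene number), 1814 several and 16010 none. A gene with several probe sets (1082 of 22180) took the one with the highest mean.

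One limma fit (version 3.58.1, lmFit and eBayes, R 4.3.3) held all 4 groups, and p-values were adjusted by Benjamini-Hochberg over all 22180 genes, with calls at an adjusted p under 0.05. The design was tested on simulated data. The series' design text calls the arrays biological replicates.

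Named were the 15 largest rises and 15 largest falls among called genes without overlap between the KO groups, gene models left out, the 10 most positive and 10 most negative interactions, members of 25 gene lists and 15 marker lists, and a fixed set of metabolic genes. The genes, lists and tests were chosen with earlier results of these data known. Alternatives were a replicate block, other eBayes settings, array weights, quantile normalization, median centring, other filters and probe set rules, fewer arrays, a 2-fold limit and leaving out each array.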

Additional observations from a re-analysis of the deposited data

Results flagged for a closer look

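The response to HFD differed between KO and WT livers, by the interaction term of the limma fit at an adjusted p under 0.05, for 783 genes. The genes of the report among them follow with the interaction, which is the KO diet difference minus the WT diet difference on the log2 scale. No explanation was weighed for any of them.

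Among cytochromes P450, which oxidise drugs, steroids and lipids, negative interactions were -11.16 for Cyp2b9, -5.18 for Cyp2b13, -3.67 for Cyp2b10, -3.04 for Cyp2a4, -2.98 for Cyp2a5, -1.79 for Cyp3a59, -1.47 for Cyp3a44, -1.44 for Cyp26a1, -1.07 for Cyp2c29 and -0.95 for Cyp3a11. Positive ones were 3.56 for Cyp4a12b, 3.45 for Cyp7b1 and 1.55 for Cyp4a12a. Other enzymes and transporters for foreign compounds, steroids and amines had interactions of -4.15 for Slc22a27, -2.46 for Gstm3, -2.41 for Hnmt, -2.31 for Akr1d1, -1.54 for Fmo2, -1.53 for Inmt, -1.36 for Gsta3, -1.20 for Nqo1, -1.16 for Rdh16f2, -1.13 for Gsta4, -0.94 for Ces1b, -0.92 for Slc16a7, -0.85 for Maoa, -0.77 for Gstm1, -0.77 for Ces1e, -0.63 for Ces1d and -0.60 for Kyat3 on the negative side, and of 4.23 for Hsd3b5, 3.98 for Ugt2b38, 2.95 for Selenbp2, 2.95 for Ugt2b37 and 1.36 for Ces4a on the positive side.

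In lipid handling the interactions were 0.53 for Plin2, -3.94 for Thrsp, -3.68 for Lpin1, -2.82 for Cidea, -2.34 for Cd36, -2.09 for Abcd2, -1.92 for Vldlr, 3.52 for Fabp5 and 1.41 for Elovl3. Genes of defence, inflammation and tissue remodelling gave -4.72 for Orm3, -4.00 for Atp6v0d2, -1.70 for Mmp12, -1.42 for Col1a1, -1.38 for Mbl2, -0.93 for Trem2, 0.98 for Rnase2a, 0.93 for Tlr12 and 2.36 for C6. Hormones, signalling, clock and stress genes gave -5.25 for Hamp2, -4.55 for Rgs16, -3.69 for Ciart, -1.03 for Hspa5, -0.67 for Cux2, 1.18 for Zscan4a, 1.36 for Paqr9, 1.82 for Socs2, 1.96 for Fgf21 and 2.97 for Irs2. The remaining genes gave -2.42 for Serpinb1a, -2.29 for Dsg1c, 1.08 for Lamb3, 1.09 for Wif1, 1.32 for Ppp1r9a, 1.73 for Spon2, 2.09 for Gm4450 and 4.76 for Moxd1.

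Outside the genes with a single symbol, 5 probe sets without one changed in KO livers on HFD, in a fit over every probe set. They were 1 higher and 4 lower of 17824, and they carry no gene name here.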

How the results depend on the processing

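The KO comparison gave 54 changed genes, 19 higher and 35 lower. It gave 124 (43 higher, 81 lower) with eBayes trend and robust settings, and 124 (37 higher, 87 lower) over only genes above the median signal, where fewer genes were tested. It gave 21 (10 higher, 11 lower) with only the KO arrays fitted, 35 (13 higher, 22 lower) without the WT HFD arrays, and 28 (8 higher, 20 lower) at a change of at least 2-fold. Leaving out 1 array in turn gave 28 to 79 changed, 11 to 31 higher and 17 to 53 lower. The lowest counts came without KO chow 2, and 35 changed (20 lower) without KO chow 3. The 53 lower genes arose without KO HFD 1 and the 31 higher genes without WT chow 1. In WT livers 1543 genes changed, and 206 by at least 2-fold. Leaving out 1 array gave 815 to 1691, with 935, 860 and 867 without WT HFD 1, 2 and 3 and 815 without WT chow 3. The interaction passed for 783 genes, against 1201 with trend and robust settings, 1394 over only genes above the median signal and 275 at 2-fold. Leaving out 1 array gave 432 to 718, with 489 without KO HFD 2, 432 and 434 without KO chow 2 and 3, 443 and 481 without WT HFD 2 and 3, and 444 without WT chow 3. Median centring moved the split of WT calls to 1089 higher and 457 lower, and of interactions to 221 positive and 623 negative. Some of these settings hold fewer genes or arrays, and the causes of the shifts were not tested. With the replicate number as a block 40 genes changed in KO livers, 38 of them among the 54, and 612 interactions passed. Same-numbered KO arrays deviated from their group means with correlations of -0.06, -0.04 and -0.03. These values gave no sign of pairing by number, and with 3 arrays per group they cannot exclude it. Over 117 genes, the alternatives ended a call in 280 and added one in 49 of 2676 values, and the direction of no called gene was reversed. The number of arrays, 3 per group, and the background signal of dim probe sets limit what could be detected.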

Other observations

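The lists not described above held few or no changed genes in KO livers, where 0.243% of all genes changed. Of 28 subunits of the mitochondrial respiratory chain 0 changed, with a median of -0.09. All 3 HFD livers lay below all 3 chow livers in 8 of the 28 and above in 1, against 6.79% and 6.99% of all genes. Of 17 apolipoproteins and lipoprotein assembly genes 0 changed, with a median of -0.02. Of 18 clock genes and outputs, 16 immediate early genes, 27 cell cycle genes and 18 secreted liver hormones 0 changed. The ATF4 stress list held 1 changed gene of 17, Vldlr, which fell, against 0.158% of all genes lower.

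The markers of periportal hepatocytes averaged 10.94 to 11.29 in KO livers on HFD, against 11.08 to 11.39 on chow. Those of pericentral hepatocytes averaged 10.55 to 10.75 on HFD, against 10.55 to 10.69 on chow. The groups overlapped for both zones. Endothelial markers averaged 9.16 to 9.29 on HFD, against 9.28 to 9.31 on chow, and bile duct markers 5.72 to 5.91 on HFD, against 5.60 to 5.84 on chow. Markers of antigen presentation averaged 7.44 to 7.50 on HFD, against 7.51 to 7.90 on chow, the HFD livers lying below the chow livers with 0 of 7 members changed. Neutrophil markers averaged 4.93 to 5.02 on HFD, against 4.97 to 5.10 on chow. The 3 measured erythroid, 5 pancreatic acinar and 7 skeletal muscle markers averaged 5.45 to 5.64, 5.15 to 5.36 and 5.45 to 5.61 in KO livers on HFD, and 0 of them changed. These averages lay above the 4.21 to 4.76 of Xist but within or below the array medians of 5.58 to 5.70. They therefore do not show that such RNA was present.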
